A study of Bubalus bubalis with 8 samples.

Results

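Among the transcripts of buffalo oocytes that carry no gene annotation, 325 were abundant in the immature oocyte and nearly undetectable from the morula on. They are IDs that the authors named as new genes (prefix Bubalus_newGene_), with at least 30 FPKM in the GV oocyte library and under 1 FPKM in both the morula and the blastocyst library. FPKM counts fragments relative to transcript length and to all mapped fragments of a library. The 325 members were chosen from 10439 new-gene IDs in a table of 28659 gene IDs. The table pairs no ID with a symbol, a position or a sequence, and 0 of all 28659 IDs, numbered IDs included, matched a RefSeq gene table of the buffalo assembly NDDB_SH_1. A missing match therefore says nothing particular of the members, and each is known here only by its ID and its levels.

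The samples were water buffalo (Bubalus bubalis) oocytes and embryos obtained in vitro, 1 library for each of 8 stages. These were the immature oocyte at the germinal vesicle stage (GV), the mature oocyte at metaphase II (MII), and parthenogenetically activated embryos at the 2-cell, 4-cell, 8-cell, 16-cell, morula and blastocyst stages. Parthenogenetic activation starts cleavage of an egg without sperm, so all embryos carried maternal genomes alone. The study asked how maternal transcripts change over these stages. With a single library per stage there was no replicate error and no test, so every value describes these libraries. Sequencing depth is unknown, and how many oocytes or embryos went into each library is not known either. FPKM is relative to the rest of a library, so a lower value does not tell less of a transcript per embryo from more of other transcripts, and fewer cells cannot be told apart from less RNA per cell.

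A growing oocyte stores RNA that serves maturation, fertilization and the first cleavages, while the full-grown oocyte and the early embryo transcribe little. These maternal RNAs are removed in waves, some during meiotic maturation and others around the time when the embryonic genome becomes active. In cattle, a close relative of buffalo, the main activation falls at the 8-cell to 16-cell stage. Transcripts assembled from reads outside the known genes can be long noncoding RNAs, unannotated coding genes, extended ends of known genes or copies of repeats, and nothing in the table tells which of these a member is.

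The thresholds took a large part of the abundant new-gene IDs and a small part of the others. Of 417 new-gene IDs with a GV value of at least 30 FPKM, 325 (77.9%) were under 1 FPKM in both the morula and the blastocyst. Another 17 were under 1 FPKM in the morula alone, 12 in the blastocyst alone and 63 in neither. The comparison set was made of numbered IDs, those named by the word gene and a number, chosen by the same thresholds. It held 273 of 3869 numbered IDs with such a GV value (7.06%). These counts describe the choice of members and are not a result. New-gene IDs as a whole were seldom detected in the late libraries, with 724 at 1 FPKM or more in the morula and 681 in the blastocyst, against 4103 at the 16-cell stage. Numbered IDs at that level were 9953 in the morula, 10853 in the blastocyst and 12003 at the 16-cell stage. The morula and blastocyst libraries, which define the members, also stood apart in their FPKM sums, 2501133 and 2239886, against 892286 to 1162574 in the other 6 libraries. The part of these library differences in the choice of members was not tested.

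The edges of the choice lay close to other IDs. The lowest GV value of a member was 30.1 FPKM and the highest GV value just outside was 29.99 FPKM, with 40 members between 30 and 35 FPKM and 65 otherwise matching IDs between 25 and 30 FPKM. The highest late value of a member was 0.978 FPKM and the lowest just outside was 1.04 FPKM. Only 17 members had a late value of 0.5 to 1 FPKM in the higher of the morula and blastocyst libraries, and 16 new-gene IDs of the required GV level had 1 to 2 FPKM there. Most members were far under the late threshold. The morula library listed 244 of the 325 at exactly 0 and the blastocyst library 248, and 204 were listed at 0 in both. Of the 273 numbered IDs, 136 were at 0 in the morula, 128 in the blastocyst and 82 in both. An exact 0 in a table without counts can be a failed estimate, and some positive values were vanishingly small, with 10 members above 0 but under 0.001 FPKM in the morula and 14 in the blastocyst.

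Members spanned a wide range of levels in the immature oocyte. Their GV values ran from 30.1 to 2176 FPKM with a median of 59.8 FPKM and quartiles of 40.9 and 103 FPKM, against a median of 77.9 FPKM and quartiles of 42.9 and 149 FPKM for the numbered IDs. Together the members held 3.36% of the FPKM sum of the GV library. Their 2 most abundant IDs made up 9.58% of that share and the 20 most abundant 39.0%, so no single transcript carried the set. The members held 2.33% of the MII library, 2.61% of the 2-cell, 1.79% of the 4-cell, 2.45% of the 8-cell and 0.359% of the 16-cell library.

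By median, the level of the members came down mainly between the 8-cell and 16-cell embryos, from 27.5 to 2.28 FPKM. Partial decreases by median lay between the GV and MII oocytes and between the 2-cell and 4-cell embryos. The GV library was used to choose the IDs, which makes later libraries look lower, and its part in the GV to MII decrease was not tested. The median over members was 59.8 FPKM in the GV oocyte, 32.1 in MII, 36.1 at 2-cell, 23.6 at 4-cell, 27.5 at 8-cell and 2.28 FPKM at the 16-cell stage. The numbered IDs had medians of 77.9, 56.6, 61.6, 41.7, 40.5 and 3.77 FPKM in the same libraries. Members were lower than the numbered IDs by median in each library from GV to 16-cell, so the pace is given below relative to each ID's own GV level.

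**Figure D1:**
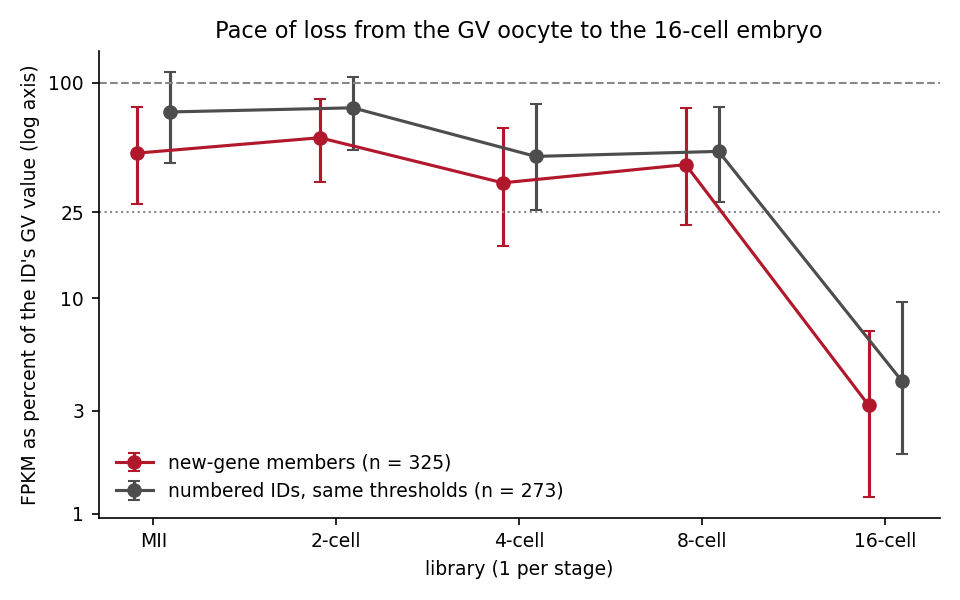
Level in each library from MII to 16-cell as a percentage of the same ID's GV level, on a log axis, for the 325 new-gene members (red) and the 273 numbered IDs chosen by the same thresholds (grey). Points are medians and bars run from the lower to the upper quartile over IDs; the dotted line is 25% and the dashed line 100%. Members had the lower median in all 5 libraries, with 47.1% against 73.1% in MII and 3.19% against 4.15% at the 16-cell stage.

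By the MII stage the members had on median 47.1% of their GV level (quartiles 27.3% and 76.9%), against 73.1% for the numbered IDs (42.2% and 112%). The member median was 55.5% in the 2-cell embryo, 34.3% at 4-cell, 41.7% at 8-cell and 3.19% at the 16-cell stage. For the numbered IDs it was 76.5%, 45.5%, 48.0% and 4.15%. The quartile ranges of the sets overlapped in every library. The GV library was used to choose both sets, and choosing high GV values makes later libraries look lower in both, though not necessarily by the same amount.

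The same order was seen in the share of IDs under 25% of their GV level. In MII, 70 of the 325 members (21.5%) were under it and 28 of the 273 numbered IDs (10.3%), while 9.89% of the 4286 IDs of either kind with a GV value of 30 FPKM or more, called GV-abundant IDs here, were. In the 2-cell embryo it was 43 members (13.2%) and 18 numbered IDs (6.59%), with 6.25% of the GV-abundant IDs. In the 4-cell embryo it was 120 members (36.9%) and 64 numbered IDs (23.4%), with 19.3% of the GV-abundant IDs, and in the 8-cell embryo 98 members (30.2%) and 56 numbered IDs (20.5%), with 16.4% of them. By the 16-cell stage nearly all had passed it, with 312 members (96.0%) and 251 numbered IDs (91.9%), against 44.3% of the GV-abundant IDs. In these shares numbered IDs were near the background up to the 8-cell stage and members above it in every library. The shares divide by the GV values used in the choice, and the late thresholds favour low 16-cell levels in both sets. How far the choice makes these differences was not tested, so they are not shown to be a trait of the members. When IDs were chosen by a mean of 30 FPKM over GV and MII, an alternative added after seeing the data, the member share in MII was 12.8% and exceeded that of numbered IDs by 4.19 percentage points, where it had been 11.3 points.

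Because the sets differed in GV level, the shares were also taken within bins of it. At 30 to under 100 FPKM, 50 of 237 members (21.1%) were under 25% of GV in MII against 17 of 173 numbered IDs (9.83%). At 100 to under 300 FPKM it was 15 of 67 members (22.4%) against 8 of 67 numbered IDs (11.9%), and at 300 FPKM or more 5 of 21 members (23.8%) against 3 of 33 numbered IDs (9.09%). The GV to MII difference between the sets thus had the same direction in each of the 3 bins. The bins use the same GV values as the choice of IDs, so they do not remove its effect on these shares. In the 8-cell embryo the order turned in the top bin, where 33.3% of members and 36.4% of numbered IDs were under 25% of GV. Within the members, Spearman's rho of GV level and the retained percentage over 325 IDs was 0.048 in MII and -0.031 at the 16-cell stage. The percentage is itself divided by the GV level, whose range the choice cut, so values near 0 do not show that they are unrelated. IDs of a library share its depth and are not independent replicates.

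The later libraries were also set against MII, which the choice did not use, over the IDs with at least 10 FPKM there. These were 273 of the 325 members (84.0%) and 264 of the 273 numbered IDs (96.7%), so the minimum removed more of the members, those already low in MII. Relative to MII, the member median was 113% in the 2-cell embryo, 74.4% at 4-cell, 89.6% at 8-cell and 6.21% at the 16-cell stage. The numbered IDs had 100%, 70.3%, 70.3% and 6.39%, so the medians were close in the 4-cell and 16-cell libraries and furthest apart in the 8-cell library, with the members higher. Under 25% of the MII level were 11 members (4.03%) and 10 numbered IDs (3.79%) in the 2-cell embryo, with 3.06% over all 6896 IDs at that MII minimum. In the 4-cell embryo they were 39 members (14.3%) and 50 numbered IDs (18.9%), with 15.6% of all such IDs. In the 8-cell embryo they were 28 members (10.3%) and 40 numbered IDs (15.2%), with 13.2% of all such IDs. In the 16-cell embryo they were 241 members (88.3%) and 227 numbered IDs (86.0%), with 40.1% of all such IDs. Up to the 8-cell stage both shares lay near the background, and in the 16-cell library both stood well above it. The background holds IDs of any late level, while both sets were chosen to be under 1 FPKM in the morula and blastocyst. That choice favours a low 16-cell value, and its part in the excess was not tested.

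**Figure D2:**
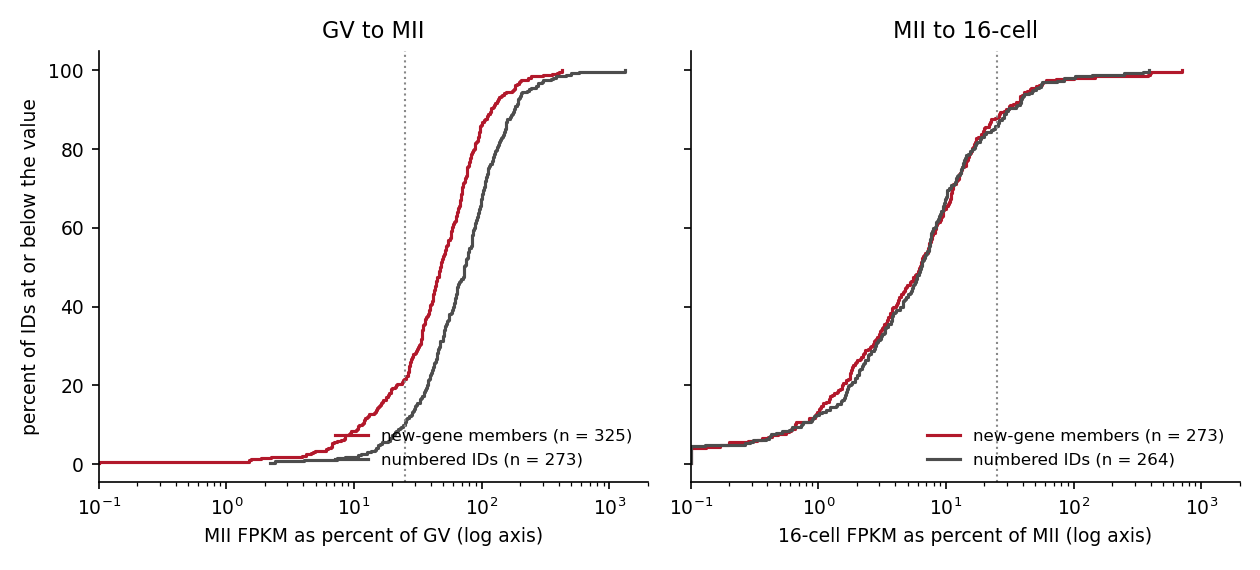
Cumulative distributions over IDs of the MII level as a percentage of GV (left) and of the 16-cell level as a percentage of MII (right, IDs with at least 10 FPKM in MII), on log axes, for new-gene members (red) and numbered IDs (grey). Values under 0.1% are drawn at 0.1% and the dotted line is 25%. On the left the member curve lies to the left of the numbered curve, with 21.5% against 10.3% of IDs under 25%; on the right the curves nearly coincide, with 88.3% against 86.0%.

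The consecutive steps show where each set moved. An ID was called lower or higher at a step when its log2(FPKM + 1) values were at least 2 apart, a 4-fold difference on that scale, and at least 1 of the libraries reached 10 FPKM. From GV to MII, 67 of 325 members (20.6%) were lower and 2 higher, against 26 of 273 numbered IDs (9.52%) lower and 4 higher. Over all IDs compared at this step 7.45% were lower and 2.71% higher. The median difference in log2(FPKM + 1) was -1.04 for members, with 280 of the 325 below 0, and -0.44 for numbered IDs, with 186 of the 273 below 0. Here and at the later steps, counts below or above 0 are given without a share over all IDs. A shift of a whole library is therefore not told apart in them.

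The MII to 2-cell step brought no further decrease by median. From MII to 2-cell, 8 members were lower and 17 higher of 311 compared, with 2.19% of all IDs lower and 2.16% higher. The median difference was 0.26 for members, 211 of which were above 0, and 0.04 for numbered IDs; after median-of-ratios scaling these were 0.14 and -0.08. Of the 70 members under 25% of GV in MII, 46 (65.7%) were at 25% or more at 2-cell and 29 (41.4%) at 8-cell, against 23 (82.1%) and 17 (60.7%) of the 28 numbered IDs under 25% in MII. These IDs were picked for low values in 1 library, and that choice itself favours higher values in the next one. A recovery cannot be told apart from the effect of this choice and was not tested. No such share is given over the GV-abundant IDs under 25% in MII, so these shares have no background. Under 25% in every library from MII to the 16-cell stage were 16 members (4.92%), against 3 numbered IDs (1.10%) and 0.933% of the GV-abundant IDs.

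Both sets decreased by median between the 2-cell and 4-cell embryos. At this step 31 of 306 members (10.1%) and 35 of 265 numbered IDs (13.2%) were lower, and 3 and 1 were higher, while 5.83% of all IDs were lower and 4.12% higher. The median difference was -0.58 for members and -0.66 for numbered IDs. For members this was less than their GV to MII difference of -1.04, and for numbered IDs more than theirs of -0.44. From 4-cell to 8-cell the members were slightly higher again, with a median difference of 0.29 and 224 of the 325 above 0, against 0.04 and 139 of the 273 for numbered IDs. That difference was 0.39 for members and 0.14 or 0.15 for numbered IDs under both other scalings. Few IDs passed the rule of size at this step, with 1 member lower and 5 higher of 277 compared and 2.08% of all IDs lower and 1.1% higher. Of the 120 members under 25% of GV at 4-cell, 36 (30%) were at 25% or more at 8-cell, a share close to the 21 of 64 numbered IDs (32.8%). No share over the GV-abundant IDs is given for this return.

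The step into the 16-cell stage was the main one. Of 268 members compared, 238 (88.8%) were lower and 2 higher, against 206 (83.4%) lower and 1 higher of 247 numbered IDs. Over all IDs 27.2% were lower and 24% higher. Both sets were chosen to be under 1 FPKM in the morula and blastocyst, and all IDs were not. That choice favours a decrease by then, and its part in this step was not tested. The median difference was -3.09 for members and -3.15 for numbered IDs, and 313 members were below 0. The 8-cell to 16-cell step was the steepest of the 5 steps from GV to 16-cell for 253 members (77.8%), against 228 numbered IDs (83.5%) and 51.8% of the GV-abundant IDs. It was the GV to MII step for 48 members (14.8%) against 16 numbered IDs (5.86%) and 20.2% of the GV-abundant IDs. It was the 2-cell to 4-cell step for 18 members (5.54%) and 21 numbered IDs (7.69%), against 13.6% of the GV-abundant IDs, and another step for the remaining 6 members and 8 numbered IDs. Each ID has only 1 steepest step, so a large share at the 16-cell step lowers the others. The GV to MII share thus does not show a smaller decrease there. By the rule of size 20.6% of members were lower at that step, against 7.45% of all IDs. The difference between the sets in the share steepest at the 16-cell step turned to 4.71 percentage points more members when IDs were chosen by the mean of GV and MII.

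Members were at low but mostly detectable levels in the 16-cell embryo. In that library 229 of the 325 (70.5%) were at 1 FPKM or more, against 85.3% of the numbered IDs and 95.7% of the GV-abundant IDs. At 10 FPKM or more were 40 (12.3%), against 22.3% and 72.1%, and 13 (4%) were listed at 0, against 2.93% and 0.607%. The late thresholds favour low values here in both sets. Under 1 FPKM were 96 members (29.5%) against 40 numbered IDs (14.7%), and 4.29% of the GV-abundant IDs; the members were already lower in the 8-cell library, with a median of 27.5 FPKM against 40.5 FPKM. The timing rests on 1 library, and a difference of the 16-cell library from the earlier ones cannot be told apart from stage.

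Each ID was also placed by the first library from which it stayed under 25% of GV up to the 16-cell stage. Most members, 216 of 325 (66.5%), were low from the 16-cell stage, as were 197 of the 273 numbered IDs (72.2%) and 36% of the GV-abundant IDs. Another 54 members (16.6%) were low from the 4-cell stage, against 31 numbered IDs (11.4%) and 5.23% of the GV-abundant IDs. The 16 members low from MII are given above. Low from 2-cell were 12 members (3.69%), against 7 numbered IDs (2.56%) and 0.677% of the GV-abundant IDs. Low from 8-cell were 14 members (4.31%), against 13 numbered IDs (4.76%) and 1.49% of the GV-abundant IDs. The last 13 members (4.00%) were still at 25% or more in the 16-cell embryo, against 22 numbered IDs (8.06%) and 55.7% of the GV-abundant IDs. The late thresholds, which the GV-abundant IDs did not have to meet, favour low 16-cell values in both sets. Their part in these class shares was not tested. The class low from 16-cell also holds IDs that were under 25% in an earlier library and then returned. At 25% of GV or more in each library from MII to 8-cell, and under it in the 16-cell library, were 159 members (48.9%). The same held for 163 numbered IDs (59.7%) and 30.9% of the GV-abundant IDs. A dip under 25% followed by a return in a later library was seen for 84 members (25.8%) and 47 numbered IDs (17.2%), and for 19.6% of the GV-abundant IDs.

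**Figure D3:**
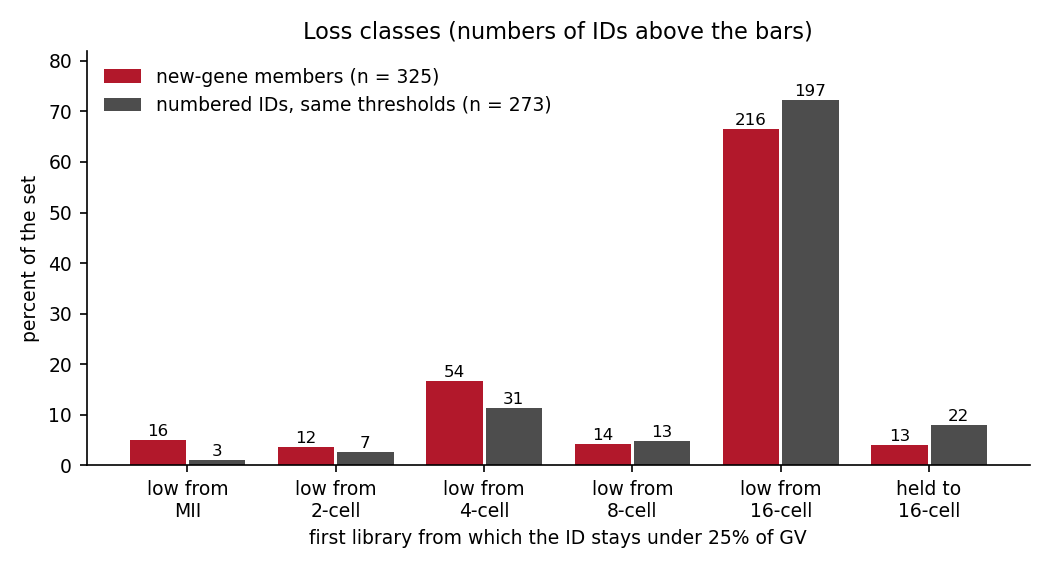
Percent of the 325 new-gene members (red) and of the 273 numbered IDs (grey) in each loss class, defined by the first library from which an ID stayed under 25% of its GV level up to the 16-cell embryo; numbers above the bars count IDs. The class low from 16-cell is the largest in both sets, with 216 members and 197 numbered IDs.

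The 2 most abundant members followed different courses. Bubalus_newGene_38460 had 2176 FPKM in the GV oocyte, 404 in MII, 442 at 2-cell, 103 at 4-cell, 128 at 8-cell and 4.08 FPKM at the 16-cell stage, and was listed at 0 in the morula and blastocyst. It was thus under 25% of GV in every library from MII on. Bubalus_newGene_6867 had 1518 FPKM in GV, 1067 in MII, 1227 at 2-cell, 1540 at 4-cell, 1746 at 8-cell, 102 at the 16-cell stage, 0.776 in the morula and 0.633 FPKM in the blastocyst. It stayed at 70.3% of its GV level or more through the 8-cell stage and was at 6.71% at the 16-cell stage.

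The next members show the early courses; each has the highest GV level of its class, except that Bubalus_newGene_21171 is second to Bubalus_newGene_38460 among those low from MII. Bubalus_newGene_21171 had 716 FPKM in GV, 77.3 in MII, 174 at 2-cell, 36.6 at 4-cell, 49.7 at 8-cell and 0.374 FPKM at the 16-cell stage, and was listed at 0 later. Bubalus_newGene_53745, low from 2-cell, had 499 FPKM in GV, 142 in MII, 77.2 at 2-cell, 51.1 at 4-cell, 78.9 at 8-cell, 2.50 at the 16-cell stage, 0.188 in the morula and 0.382 FPKM in the blastocyst. Both were higher in the 8-cell than in the 4-cell library, as most members were. Bubalus_newGene_35827, low from 4-cell, had 603 FPKM in GV, 310 in MII, 250 at 2-cell, 92.4 at 4-cell, 138 at 8-cell, 9.49 at the 16-cell stage, 0.261 in the morula and 0.262 FPKM in the blastocyst. Bubalus_newGene_16022, low from 8-cell, had 164 FPKM in GV, 14.0 in MII, 106 at 2-cell, 53.7 at 4-cell, 27.1 at 8-cell, 0.823 at the 16-cell stage, 0.0763 in the morula and was listed at 0 in the blastocyst. Its MII value was far below both neighbouring libraries, a dip that the other 3 did not show to that depth.

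Within the late classes the courses also differed. Bubalus_newGene_52223, low from 16-cell, had 1241 FPKM in GV, 996 in MII, 1159 at 2-cell, 298 at 4-cell, 378 at 8-cell and 31.3 FPKM at the 16-cell stage, and was listed at 0 later. Bubalus_newGene_39383 had the greatest decrease of any member at the 16-cell step. It had 54.4 FPKM in GV, 28.9 in MII, 0.322 at 2-cell, 0.209 at 4-cell, 123 at 8-cell, 0.0954 at the 16-cell stage, 0.0504 in the morula and was listed at 0 in the blastocyst. Its decrease of -6.82 log2 units thus started from a high value in the 8-cell library, which lay between very low values in the 4-cell and 16-cell libraries.

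**Figure D4:**
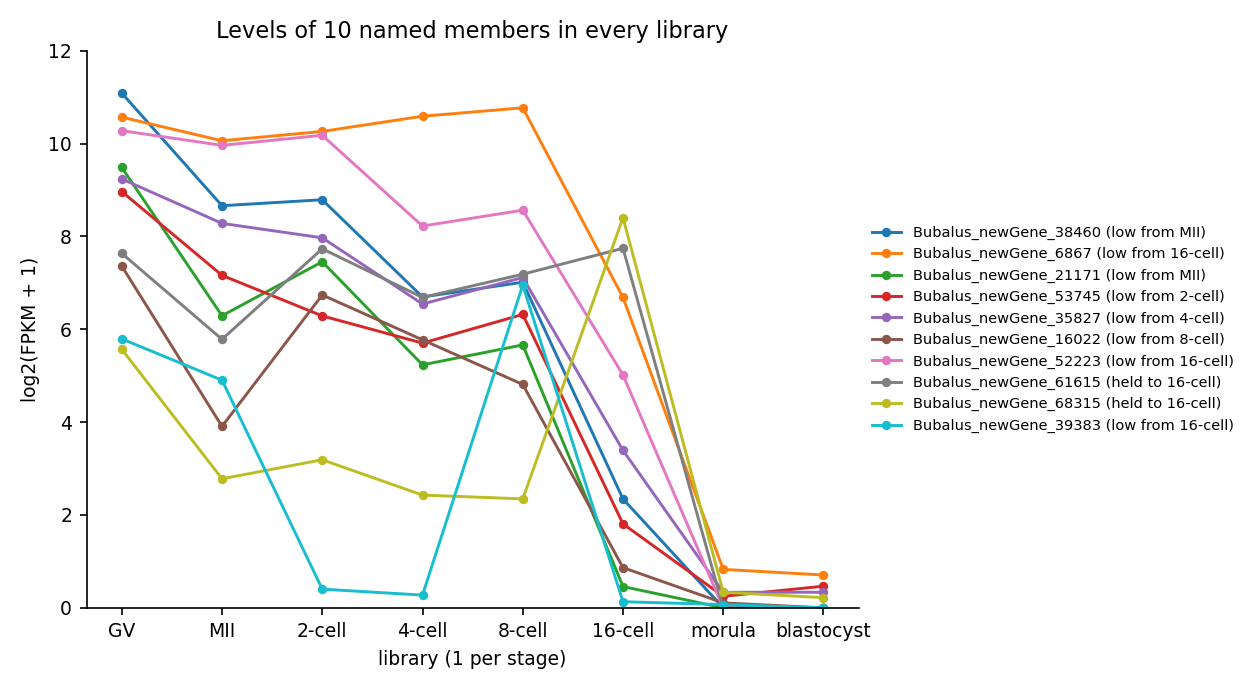
Level in every library, as log2(FPKM + 1), of the 10 members named by a fixed rule; each line is 1 ID and each point 1 library, with the loss class in the legend. All lines lie under 1 in the morula and blastocyst, as the choice of members requires, and only Bubalus_newGene_61615 and Bubalus_newGene_68315 are higher in the 16-cell than in the 8-cell library.

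A few members ran against the rest and were at or above their GV level in the 16-cell embryo before falling under 1 FPKM in the morula. There were 5 of them among the 325 members (1.54%) and 5 among the 273 numbered IDs (1.83%), against 24.1% of the GV-abundant IDs. Bubalus_newGene_1, Bubalus_newGene_2 and Bubalus_newGene_20156 are named here after their values were seen. Bubalus_newGene_68315 had 46.5 FPKM in GV, 5.87 in MII, 8.12 at 2-cell, 4.38 at 4-cell, 4.09 at 8-cell, 338 at the 16-cell stage, 0.261 in the morula and 0.164 FPKM in the blastocyst, the greatest increase of any member at the 16-cell step (6.06 log2 units). Bubalus_newGene_61615 had 198 FPKM in GV, 54.1 in MII, 212 at 2-cell, 102 at 4-cell, 145 at 8-cell and 214 FPKM at the 16-cell stage, was at 5.05e-06 FPKM in the morula and was listed at 0 in the blastocyst. It was in the 16-cell embryo near its GV level, without a clear excess.

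Bubalus_newGene_1 and Bubalus_newGene_2 had like courses. Bubalus_newGene_1 had 144 FPKM in GV, 139 in MII, 73.2 at 2-cell, 179 at 4-cell, 407 at 8-cell, 989 at the 16-cell stage, 0.564 in the morula and 0.427 FPKM in the blastocyst. Bubalus_newGene_2 had 115 FPKM in GV, 166 in MII, 97.9 at 2-cell, 128 at 4-cell, 287 at 8-cell, 668 at the 16-cell stage, 0.652 in the morula and 0.158 FPKM in the blastocyst. Both were higher at each of the steps between 2-cell and 16-cell. Bubalus_newGene_20156 had 58.1 FPKM in GV, 46.7 in MII, 39.99 at 2-cell, 24.3 at 4-cell, 22.3 at 8-cell and 177 FPKM at the 16-cell stage, with 2.06e-06 in the morula and 0.264 FPKM in the blastocyst. These 5 were the 5 most abundant members in the 16-cell library and made up 57.1% of the members' FPKM there. Without them the other 320 members held 0.154% of the 16-cell library, where all 325 had held 0.359%.

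The 13 members still at 25% of GV or more in the 16-cell embryo ranged from 9.67 to 989 FPKM there, with a median of 21.8 FPKM. The 216 members low from 16-cell had a median of 3.28 FPKM in that library, with a highest value of 139 FPKM, and the medians of the 4 earlier classes lay between 0.588 and 1.43 FPKM. By median, members that had come down early were thus also lower in the 16-cell library than those that had come down late, although the classes themselves use the 16-cell value.

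The levels of the members in consecutive libraries went together to differing degrees. Pearson's r of log2(FPKM + 1) over the 325 members was 0.66 between GV and MII, 0.76 between MII and 2-cell, 0.78 between 2-cell and 4-cell, 0.91 between 4-cell and 8-cell and 0.64 between 8-cell and 16-cell. Over the 273 numbered IDs these were 0.78, 0.83, 0.76, 0.91 and 0.64. These correlations are across IDs, which share a library and are not independent replicates, and the GV range is cut by the choice of IDs.

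The members differed by median, before the morula, from the 92 other new-gene IDs that were abundant in the GV oocyte but missed the late thresholds. In MII the members had a median of 47.1% of GV, against 87.3% for these 92 IDs, and at the 16-cell stage 3.19% of GV, against 16.1%. Under 25% of GV in MII were 70 members (21.5%), against 7 of the 92 (7.61%). From 8-cell to 16-cell, 238 of 268 members compared (88.8%) were lower and 2 higher, against 46 of 90 (51.1%) lower and 10 higher among the other new-gene IDs. The lower MII level was thus not shared by all new-gene IDs of the GV oocyte; the late values that divide these IDs were part of the choice, and the difference has no test.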

How the data were processed

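The authors deposited 1 table of FPKM values with 28659 gene IDs and 8 library columns, per the file's name and header. For alignment, assembly, build and filtering, the tools were not given in the sources used here. Per the labels, RNA extraction was described for a different tissue, and that text was not used. Stage came from each sample's title, and columns were tied to samples by their description. Depth is unknown, so no counting interval is given.

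Members were new-gene IDs with at least 30 FPKM in GV and under 1 FPKM in both morula and blastocyst; numbered IDs (18220 in all, 33 with a suffix) were chosen by the same thresholds. The members, sets and rules were chosen with earlier results of these data known. Ratios used FPKM as deposited, and step differences used log2(FPKM + 1), which understates the change of low IDs. With 1 library per stage and IDs that are not replicates, no test was run. The class and step rules were checked on simulated IDs with 1 large drop each and little scatter. Real IDs also dip and return, so this checks the code and not how well the rules sort real IDs. IDs were named by a fixed rule: the 2 members highest in GV, the highest in GV not yet named in each loss class, and the greatest increase and decrease at the 16-cell step with at least 10 FPKM. No gene list could be scored, since no ID matched a name. No sequences are shown, since the IDs could not be tied to any. Alternatives were rescaling each library to a sum of 1000000, median-of-ratios scaling over 7147 IDs at 1 FPKM or more in every library, other thresholds and a pseudocount of 0.1. Python 3.11.15, pandas 2.3.3, numpy 2.4.6, scipy 1.17.1 and matplotlib 3.10.9 were used.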

Additional observations from a re-analysis of the deposited data

How the results depend on the processing

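Of 248 recomputed counts and shares, 209 stayed within 1.5 times the reported count or within the exact 95% binomial interval of the reported share, which served here only as a tolerance. The median decreases of members at the GV to MII, 2-cell to 4-cell and 8-cell to 16-cell steps, and their median increases at the other 2 steps, kept their sign under both scalings, a pseudocount of 0.1 and the choice by the mean of GV and MII. The last was chosen after seeing the data. The cause of the moves was not tested, except that looser or stricter thresholds admit more or fewer IDs.

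Rescaling libraries to equal sums, which shifted all IDs by 0.23 log2 units from MII to 2-cell and by -0.38 from 8-cell to 16-cell, gave 9.15%, 26.5% and 20.3% of members under 25% of GV in 2-cell, 4-cell and 8-cell, and 3.37%, 17.4% and 11.5% of numbered IDs. It gave 10.2% of numbered IDs under 25% of MII in 8-cell, 27 members higher from MII to 2-cell, and the steepest step into 16-cell for 83.0% of members and 87.9% of numbered IDs. Median-of-ratios scaling, which shifted all IDs by at most 0.19 log2 units at a step, gave 0 members lower from 4-cell to 8-cell by the rule of size, a median log2 difference from MII to 2-cell of -0.085 for numbered IDs, and a difference between the sets (members minus numbered IDs) in the share under 25% of MII in 2-cell of -0.93 percentage points. That small difference was also -0.21 at a GV minimum of 10 FPKM, -0.65 at 100 FPKM, -1.40 at a late maximum of 0.1 FPKM and -0.045 with the mean of GV and MII.

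A GV minimum of 10 FPKM gave 818 members and 597 numbered IDs, of which 85.9% were under 25% of GV in 16-cell and 75.2% had the steepest step there. A minimum of 100 FPKM gave 88 members and 100 numbered IDs; of these numbered IDs, 32.0% and 26.0% were under 25% of GV in 4-cell and 8-cell, 24.2% under 25% of MII in 4-cell, and 88.0% had the steepest step into 16-cell. A late maximum of 0.1 FPKM gave 111 numbered IDs, with 30.6% and 29.7% under 25% of GV in 4-cell and 8-cell. The late rule on the morula alone gave 421 numbered IDs. With a pseudocount of 0.1 the steepest step was into 16-cell for 84.9% of members.

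At 300 FPKM or more in GV, 19.0%, 47.6% and 100% of members were under 25% of GV in 2-cell, 4-cell and 16-cell, as were 45.5%, 36.4% and 100% of numbered IDs in 4-cell, 8-cell and 16-cell, and the 8-cell difference between the sets was -3.03 points. Numbered IDs had 18.5% in 4-cell at 30 to under 100 FPKM and 86.6% in 16-cell at 100 to under 300 FPKM. With the mean of GV and MII, 12.8% and 31.1% of members were under 25% of GV in MII and 4-cell, and 26.2% and 22.1% of numbered IDs under 25% of MII in 4-cell and 8-cell. The steepest step was then into 16-cell for 83.7% of members, 4.71 points above numbered IDs, whose median difference from MII to 2-cell was -0.15. No paired analysis was possible because there was 1 library per stage. Depth is unknown, so how far values near 0 are limited by counting cannot be given.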
